A study of Homo sapiens with 2 samples.

Results

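Cells sense oxygen through hypoxia-inducible factors (HIFs), transcription factors built from an alpha subunit, which oxygen controls, and the constitutive beta subunit ARNT. In oxygenated cells the prolyl hydroxylases EGLN1 and EGLN2 modify the alpha subunits HIF1A and EPAS1 (HIF-2 alpha), the ubiquitin ligase subunit VHL binds the hydroxylated proteins and marks them for degradation, and the asparaginyl hydroxylase HIF1AN blocks their coactivator contact. When oxygen falls, the alpha subunits accumulate as proteins and switch on targets such as BNIP3 and BNIP3L, receptors for the removal of mitochondria, and VEGFA, the main angiogenic growth factor. Much of this control acts on protein, which RNA-seq does not measure.

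The 10 genes described here are the 3 HIF subunits HIF1A, EPAS1 and ARNT, the 3 hydroxylases EGLN1, EGLN2 and HIF1AN, VHL, and the 3 targets BNIP3, BNIP3L and VEGFA. They were picked by symbol, and all 10 are among the 11976 genes of the deposited tables. RNA-seq measured messenger RNA of Huh7 cells, an established line from a human hepatocellular carcinoma, with 1 library from cells given an shRNA against USP22, which removes ubiquitin from histones as part of the SAGA coactivator, and 1 library from cells given a control shRNA. The oxygen level, the time after transfection and the number of shRNA sequences are not given in the sources used here. Levels are the deposited values, read as FPKM (fragments per kilobase of transcript, scaled to the library total). That reading is an assumption because the header names no unit. FPKM is per length, so levels of different genes can be set side by side, but it does not correct for the GC content of a transcript. With no replicate in either group there is no replicate error to weigh a difference by, and no test was possible. "Higher" and "lower" describe these 2 libraries, and in bulk RNA fewer cells of a type and less RNA per cell cannot be told apart.

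The USP22 transcript was at 7.67 FPKM in the USP22 shRNA library and 58.1 FPKM in the control library, 7.57-fold lower. All 11 hepatocyte and hepatoma markers examined were listed above 0 in both libraries, and 9 of the 11 were lower in the USP22 shRNA library. Their summed levels were 1321 FPKM in the USP22 shRNA library and 2215 FPKM in the control library. By the 2-fold rule given below, 6 of the 11 (54.5%) were lower, against 12.2% of all genes, and none higher. With the trend with GC content described below removed, 5 of the 11 were lower, against 8.92% of all genes, and none higher. Of 16 markers of blood, endothelium and stroma, 5 were among the listed genes, and ACTA2 was at 0 in both libraries. Summed blood markers, carried almost wholly by LYZ, stood at 94.1 FPKM in the USP22 shRNA library and 390 FPKM in the control library. Summed stromal markers stood at 10.3 FPKM in the USP22 shRNA library and 3.04 FPKM in the control library. Among them only LUM was higher, at 8.95 FPKM with USP22 shRNA and 1.37 FPKM with control shRNA. PDGFRB was lower, at 1.31 FPKM with USP22 shRNA and 1.68 FPKM with control shRNA. The part of these shifts in the results below was not tested.

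Across genes, the log2 ratio between the libraries, taken with 1 added to both levels and positive where USP22 shRNA is higher, was lower the higher the GC content of the transcript, with a Spearman rho of -0.70 over 10134 genes. This trend touches every gene described here. Genes were therefore also divided into 10 equal groups by GC content, and each of the 10 oxygen-sensing genes is given with the median of its GC group and with its ratio once a lowess curve through the trend was subtracted. The log2 ratio of USP22 was -2.77, and -2.44 with the trend subtracted. Genes are not replicates, and whether the trend is technical or biological was not tested.

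Of the 10 oxygen-sensing genes, 3 were at least 2-fold higher in the USP22 shRNA library (BNIP3L, HIF1A and EGLN1), 2 were at least 2-fold lower (EPAS1 and HIF1AN), and 5 lay within 2-fold. The 2-fold rule means a log2 ratio of 1 or more in size. Over all 10195 genes whose mean reached 1 FPKM, 24.1% passed the rule as higher and 12.2% as lower (19.0% and 17.0% with TMM scaling), so counts of 3 and 2 among 10 are near the background. The median log2 ratio of the 10 genes was 0.04, against 0.10 over all genes kept. With the GC trend removed, 2 of the 10 were at least 2-fold higher (BNIP3L and EGLN2) and 3 at least 2-fold lower (HIF1AN, EPAS1 and VHL), where 8.45% and 8.92% of 10134 genes were. The ratios of 5 genes were above 0 and those of 5 below 0, both as deposited and with the trend removed.

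**Figure D1:**
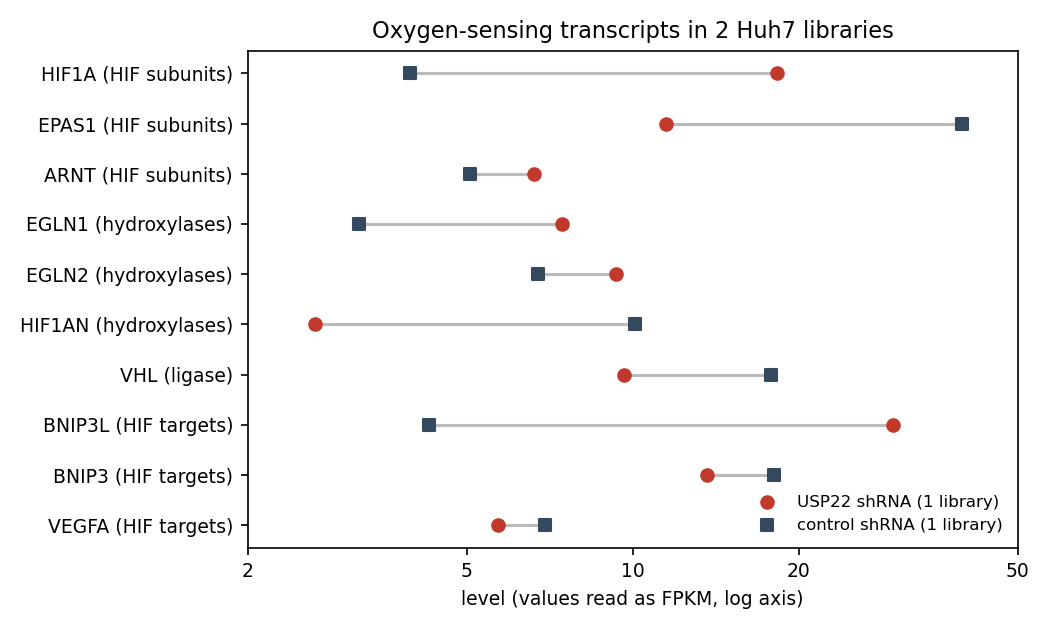
Level of each oxygen-sensing transcript in the USP22 shRNA library (red circles) and the control shRNA library (dark squares), on a log axis of values read as FPKM, with 1 library per group and no error bars. HIF1A and EPAS1 exchange places in these levels, which have the GC trend left in. HIF1A is at 18.3 FPKM and EPAS1 at 11.5 FPKM in the USP22 shRNA library. In the control library HIF1A is at 3.95 FPKM and EPAS1 at 39.6 FPKM. The gap between their log2 ratios is 3.66 as deposited and 2.04 with the trend removed.

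The order of the 10 levels differed between the libraries. In the USP22 shRNA library the transcripts ran from BNIP3L at 29.6 FPKM through HIF1A, BNIP3, EPAS1, VHL, EGLN2, EGLN1, ARNT and VEGFA to HIF1AN at 2.65 FPKM. In the control library EPAS1 stood first at 39.6 FPKM, followed by BNIP3, VHL, HIF1AN, VEGFA, EGLN2, ARNT, BNIP3L and HIF1A, with EGLN1 last at 3.18 FPKM. HIF1A was thus next to the top in the USP22 shRNA library and next to the bottom in the control library. These orders use levels with the GC trend left in. BNIP3L, HIF1A and EGLN1, which stood higher in the USP22 shRNA order, have the lowest GC contents of the 10 transcripts (38.9%, 36.4% and 44.1%). The part of the GC trend in this reordering was not tested. With 1 library each, whether neighbours in either order differ beyond replicate spread cannot be said.

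HIF1A (ENSG00000100644.16_3, on chromosome 14) encodes the oxygen-labile subunit of HIF-1. Its transcript was at 18.3 FPKM in the USP22 shRNA library and 3.95 FPKM in the control library, 4.62-fold higher, with a log2 ratio of 1.96 at rank 492 from the highest of 10195 genes. In the USP22 shRNA library 82.0% of listed genes had a lower value than HIF1A, against 50.2% in the control library. The longest protein-coding HIF1A transcript has a GC content of 36.4%, within the lowest GC group, where the median log2 ratio was 1.34 and 70.2% of 1014 genes were at least 2-fold higher. Within that GC group HIF1A ranked 176 from the highest, above the upper quartile of 1.77. With the GC trend removed its log2 ratio was 0.61, inside 2-fold.

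EPAS1 (ENSG00000116016.13_2, on chromosome 2) encodes HIF-2 alpha, the subunit with the leading part in erythropoietin control in liver and kidney. It was at 11.5 FPKM in the USP22 shRNA library and 39.6 FPKM in the control library, 3.45-fold lower, with a log2 ratio of -1.70 at rank 342 from the lowest. Its transcript has a GC content of 52.6%, in a GC group where the median was -0.41 and 18.0% of 1014 genes were at least 2-fold lower, and it ranked 49 from the lowest there. The log2 ratio of EPAS1 was -1.43 with the GC trend removed, so it stayed past 2-fold.

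Both alpha subunits pair with ARNT, and their proportion within 1 library does not depend on how that library is scaled. The proportion still has the GC trend left in, and the GC contents are 36.4% for HIF1A and 52.6% for EPAS1. HIF1A made up 61.4% of the summed HIF1A and EPAS1 level in the USP22 shRNA library and 9.06% in the control library. The sum itself was 29.8 FPKM in the USP22 shRNA library and 43.6 FPKM in the control library. The gap between the log2 ratios of HIF1A and EPAS1 was 3.66, and it was 2.04 with the GC trend removed. ARNT (ENSG00000143437.20_2, on chromosome 1) was at 6.61 FPKM in the USP22 shRNA library and 5.06 FPKM in the control library. ARNT had a log2 ratio of 0.33, close to the 0.19 median of its GC group, and of 0.01 with the GC trend removed. EPAS1 was 1.74 times the ARNT level in the USP22 shRNA library and 7.83 times in the control library.

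**Figure D2:**
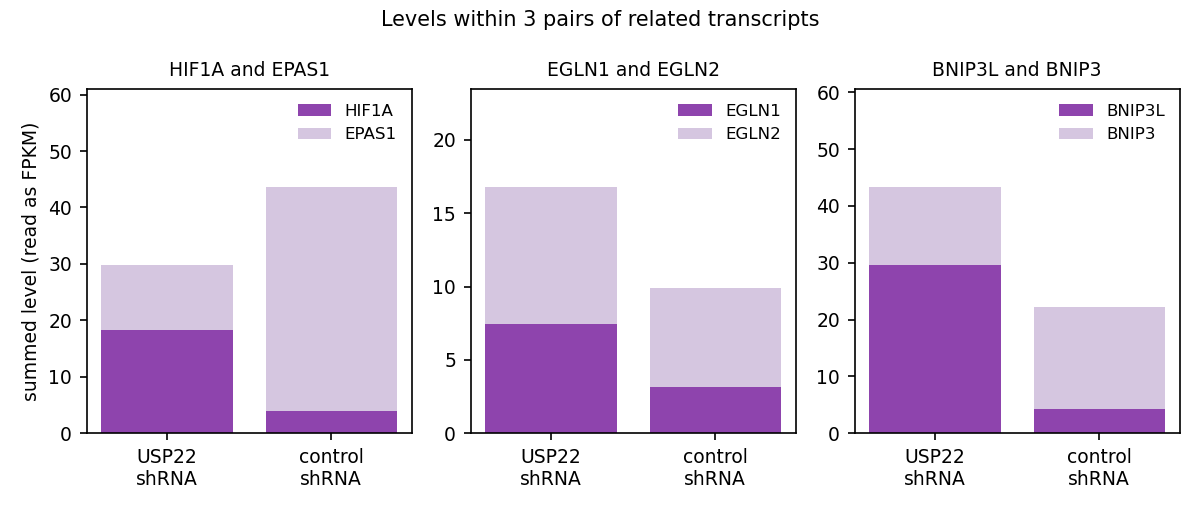
Stacked levels, in values read as FPKM, of 3 pairs of related transcripts in the USP22 shRNA library (left bar of each panel) and the control shRNA library (right bar), 1 library each. HIF1A takes 61.4% of the first pair in the USP22 shRNA library and 9.06% in the control library. BNIP3L takes 68.5% of its pair in the USP22 shRNA library and 19.1% in the control library. These shares have the GC trend left in.

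The promoters of this pair are shown because the transcripts moved apart, and those of EGLN1, EGLN2 and BNIP3 because they hold ACGTG, one form of the core letters of the hypoxia response element that HIFs bind. Each run gives the 250 bases before the first start that RefSeq lists for the gene on GRCh38.p14, read 5′ to 3′ on the gene's strand, with matches to ACGTG or GCGTG on either strand in capitals.
HIF1A, chr14:61695263-61695512, plus strand: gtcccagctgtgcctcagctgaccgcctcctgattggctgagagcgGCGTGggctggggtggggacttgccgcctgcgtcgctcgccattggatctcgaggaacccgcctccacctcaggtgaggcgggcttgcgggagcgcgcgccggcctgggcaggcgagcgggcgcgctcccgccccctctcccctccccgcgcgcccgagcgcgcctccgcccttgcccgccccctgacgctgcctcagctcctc
EPAS1, chr2:46297157-46297406, plus strand: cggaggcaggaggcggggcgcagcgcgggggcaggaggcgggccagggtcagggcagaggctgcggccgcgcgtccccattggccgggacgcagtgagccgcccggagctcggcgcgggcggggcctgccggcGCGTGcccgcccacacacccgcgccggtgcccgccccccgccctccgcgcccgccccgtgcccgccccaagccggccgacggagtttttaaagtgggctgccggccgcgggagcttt
EGLN1, chr1:231422288-231422537, minus strand: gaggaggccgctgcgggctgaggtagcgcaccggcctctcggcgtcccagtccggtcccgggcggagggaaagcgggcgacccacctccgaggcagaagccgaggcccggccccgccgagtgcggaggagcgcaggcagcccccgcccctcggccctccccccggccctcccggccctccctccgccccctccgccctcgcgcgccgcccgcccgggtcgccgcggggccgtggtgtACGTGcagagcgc
EGLN2, chr19:40798941-40799190, plus strand: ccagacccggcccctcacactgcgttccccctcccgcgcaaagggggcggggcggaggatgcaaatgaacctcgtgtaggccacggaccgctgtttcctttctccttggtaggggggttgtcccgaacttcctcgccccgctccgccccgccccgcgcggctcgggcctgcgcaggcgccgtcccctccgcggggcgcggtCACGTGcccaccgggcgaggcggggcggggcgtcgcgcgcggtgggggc
BNIP3, chr10:131981924-131982173, minus strand: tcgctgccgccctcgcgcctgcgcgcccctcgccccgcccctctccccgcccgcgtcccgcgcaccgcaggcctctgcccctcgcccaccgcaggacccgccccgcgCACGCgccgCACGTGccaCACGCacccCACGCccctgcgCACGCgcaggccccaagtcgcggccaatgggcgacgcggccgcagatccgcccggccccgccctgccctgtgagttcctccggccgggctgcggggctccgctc
HIF1A and EPAS1 each hold 1 match, GCGTG in both, and EGLN1 holds 1, ACGTG. EGLN2 holds 2, both strands of a single CACGTG. BNIP3 holds 6 matches, 2 of them the 2 strands of a single CACGTG, and 4 of GCGTG on the opposite strand. Over windows of 250 bases before to 50 after the start, 48.4% of 35116 RefSeq promoters hold at least 1 match. A single match is thus common. ACGTG is held by 21.4% of these promoters, at least 2 matches by 23.1%, and at least 6 by 0.923%. These shares cover promoters of any GC content. The BNIP3 window has a GC content of 80.7%, above that of 97.9% of promoters. Promoters were listed for 7 of the 10 genes, and those of ARNT and HIF1AN hold no match. The first HIF1A promoter window has a GC content of 73%, and that of the other HIF1A start listed 31.7% with no match, where the transcript has 36.4%. EGLN2 also has another start listed, with no match.

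The hydroxylases differed from each other. EGLN1 (ENSG00000135766.8_2, on chromosome 1), the main prolyl hydroxylase that limits HIF1A in oxygenated cells, was at 7.43 FPKM in the USP22 shRNA library and 3.18 FPKM in the control library, 2.33-fold higher. Its log2 ratio of 1.01 lay just past the size rule, in a GC group whose median was 0.58, and was 0.28 with the GC trend removed. It was also inside 2-fold with ratios centred on the median of all genes (0.91) or with TMM scaling (0.80). EGLN2 (ENSG00000269858.5_3, on chromosome 19), another prolyl hydroxylase, was at 9.34 FPKM in the USP22 shRNA library and 6.72 FPKM in the control library, a log2 ratio of 0.42. EGLN2 has the highest GC content of the 10 transcripts, 63.0%, in a GC group where the median was -0.71 and 1.28% of 1014 genes were at least 2-fold higher, and it ranked 61 from the highest there. Its log2 ratio was 1.09 with the GC trend removed, so EGLN1 and EGLN2 change places: the log2 ratio of EGLN1 minus that of EGLN2 was 0.59 as deposited and -0.81 with the trend removed. The readthrough gene RAB4B-EGLN2 shares EGLN2 exons and stood at 0.0375 FPKM in the USP22 shRNA library and 0.0290 FPKM in the control library. Together EGLN1 and EGLN2 summed to 16.8 FPKM in the USP22 shRNA library and 9.90 FPKM in the control library. EGLN3, the remaining prolyl hydroxylase of the family, was at 0.588 FPKM in the USP22 shRNA library and 1.15 FPKM in the control library, under the filter.

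HIF1AN (ENSG00000166135.13_2, on chromosome 10), the asparaginyl hydroxylase also called FIH, was at 2.65 FPKM in the USP22 shRNA library and 10.1 FPKM in the control library, 3.81-fold lower. Its log2 ratio of -1.60 went against the median of its GC group, 0.19, in which 5.82% of 1013 genes were at least 2-fold lower and HIF1AN ranked 21 from the lowest. With the GC trend removed it was -1.95, the lowest of the 10, and it ranked 106 from the bottom among 10134 genes. HIF1AN exons overlap those of NDUFB8 on the opposite strand, which was at 34.0 FPKM in the USP22 shRNA library and 68.1 FPKM in the control library. Another overlapping gene on that strand, AL133352.1, was at 3.83 FPKM in the USP22 shRNA library and 7.004 FPKM in the control library. The sources used here do not say whether strand was used in counting. Reads in the overlapping stretches, whose length was not measured, therefore may not be told apart, and the HIF1AN value is uncertain.

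VHL (ENSG00000134086.7_2, on chromosome 3), the substrate receptor of the ligase that removes hydroxylated alpha subunits, was at 9.64 FPKM in the USP22 shRNA library and 17.8 FPKM in the control library, 1.85-fold lower. Its log2 ratio of -0.82 did not pass the 2-fold rule, but VHL passed it at -1.11 with the GC trend removed and at -1.04 with TMM scaling. In its GC group, where the median was 0.19, VHL ranked 88 from the lowest of 1013 genes. HIF1A was 1.89 times the VHL level in the USP22 shRNA library, whereas VHL was 4.52 times the HIF1A level in the control library.

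**Figure D3:**
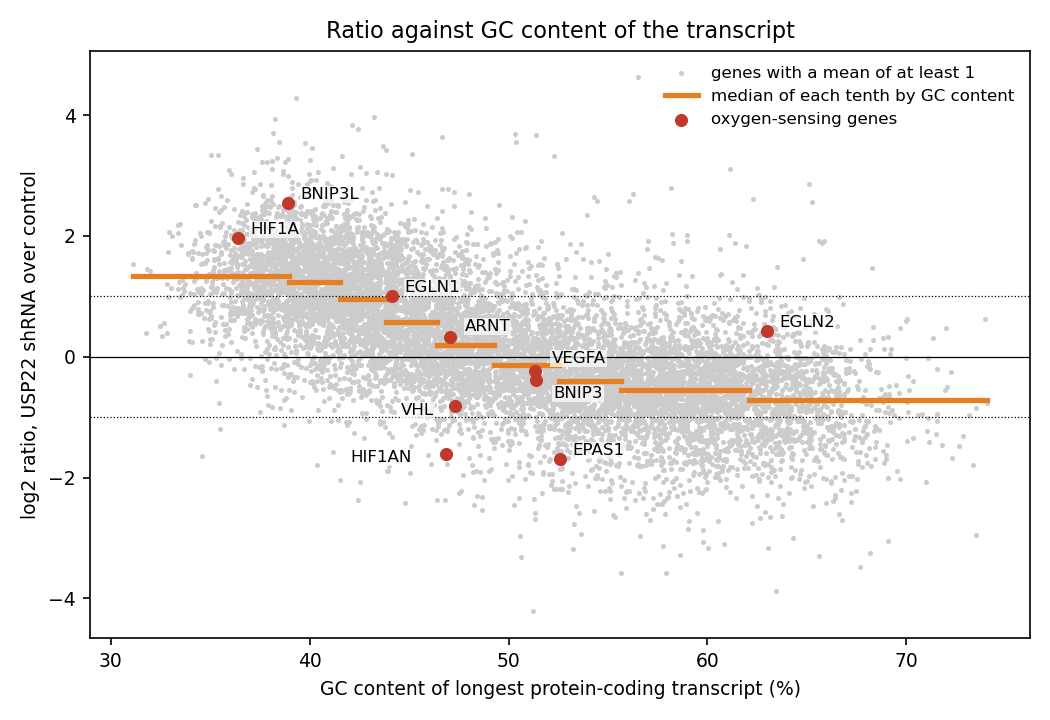
Log2 ratio of USP22 shRNA over control against the GC content (%) of the longest protein-coding transcript, for genes whose mean reached 1 FPKM (grey) and the oxygen-sensing genes (red), with the median of each of the 10 GC groups (orange bars) and 2-fold as dotted lines. HIF1A and BNIP3L sit above a high median of 1.34 at low GC content, EGLN2 sits at 0.42 where the median is -0.71, and HIF1AN and EPAS1 sit well under the medians of their GC groups.

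The 3 targets did not move together. BNIP3L (ENSG00000104765.15_3, on chromosome 8), a mitophagy receptor also called NIX, was at 29.6 FPKM in the USP22 shRNA library and 4.26 FPKM in the control library, 6.96-fold higher. Its log2 ratio of 2.54 was at rank 116 from the highest of 10195 genes and rank 41 of the 1014 genes of the lowest GC group. The median of that GC group was 1.34, and 70.2% of its genes were at least 2-fold higher. With the GC trend removed the log2 ratio of BNIP3L was 1.27, still past 2-fold. BNIP3 (ENSG00000176171.11_2, on chromosome 10), its close relative with the 6 promoter matches shown above, was at 13.6 FPKM in the USP22 shRNA library and 18.0 FPKM in the control library, a log2 ratio of -0.38. VEGFA (ENSG00000112715.21_4, on chromosome 6) was at 5.70 FPKM in the USP22 shRNA library and 6.92 FPKM in the control library, a log2 ratio of -0.24. The median of the GC group that holds both BNIP3 and VEGFA was -0.14, and with the GC trend removed their ratios were -0.22 and -0.09. BNIP3L made up 68.5% of the summed level of the 2 receptors in the USP22 shRNA library and 19.1% in the control library. These shares have the GC trend left in, and the GC contents are 38.9% for BNIP3L and 51.4% for BNIP3. The gap between the log2 ratios of BNIP3L and BNIP3 was 2.92, or 1.49 with the GC trend removed.

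Besides EGLN2 and HIF1AN, exons of HIF1A, BNIP3L and VEGFA overlap those of another annotated gene. A partner of BNIP3L on the opposite strand, PNMA2, was at 2.44 FPKM in the USP22 shRNA library and 0.972 FPKM in the control library. No level was found by name for the partners of HIF1A and VEGFA, nor for SDAD1P1 opposite BNIP3L and AC008537.1, which shares EGLN2 exons. A share of the reads of these genes thus may not be assignable, and the size of that share is unknown.

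**Figure D4:**
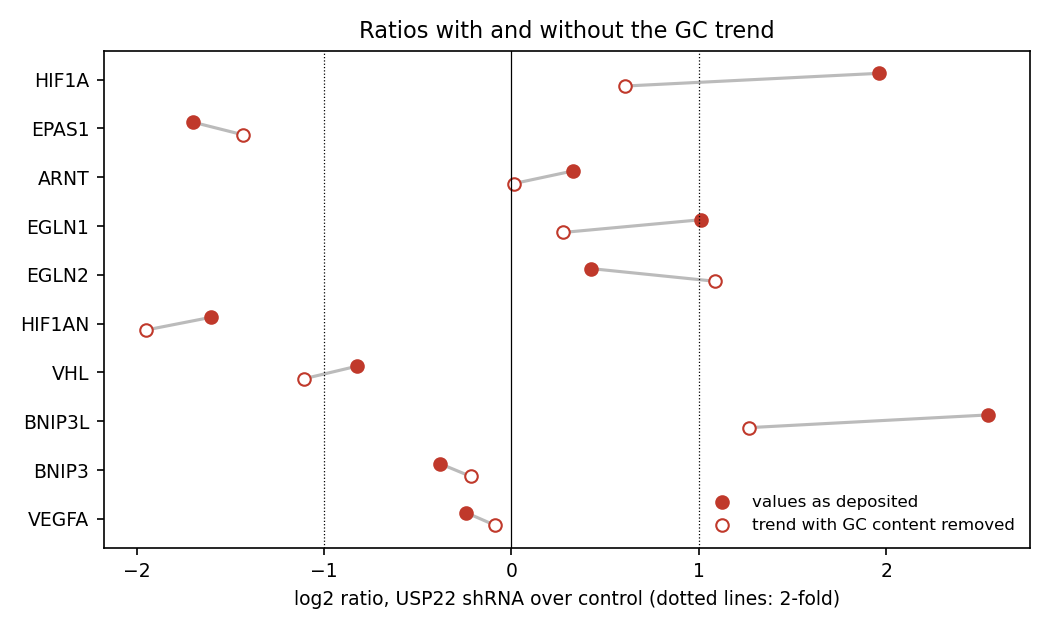
Log2 ratio of USP22 shRNA over control for each oxygen-sensing gene as deposited (filled) and with the trend with GC content removed (open), with 2-fold as dotted lines. HIF1A is at 1.96 as deposited and 0.61 with the trend removed, and EGLN1 at 1.01 and 0.28, while EPAS1, HIF1AN and BNIP3L stay past 2-fold both ways.

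Of the protein-coding genes listed, PPP1R15B and KCTD20 were among the nearest to HIF1A in log2(FPKM + 1), by Euclidean distance over the 2 libraries. PPP1R15B was at 18.3 FPKM with USP22 shRNA and 3.89 FPKM with control shRNA, a distance of 0.0178. KCTD20 was at 18.1 FPKM with USP22 shRNA and 4.02 FPKM with control shRNA, a distance of 0.0227. Over 2 libraries such likeness says only that these levels coincide.

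The wider pathway was read from 8 lists written from general knowledge, with earlier results of these data known. Their counts stand beside the shares of all genes given above, 24.1% higher and 12.2% lower as deposited, and 8.45% and 8.92% without the GC trend. Partners of VHL in its ligase numbered 8, of which 2 (25%) passed the 2-fold rule as higher, near the share of all genes, and none as lower, and their median log2 ratio was 0.14. The scaffold cullin CUL2 was at 8.08 FPKM in the USP22 shRNA library and 1.498 FPKM in the control library, and the ubiquitin-conjugating enzyme UBE2D3 at 21.1 FPKM with USP22 shRNA and 9.21 FPKM with control shRNA. The adaptor ELOB had the lowest ratio, at 63.7 FPKM with USP22 shRNA and 102 FPKM with control shRNA, followed by NEDD8, which modifies cullins, at 22.5 FPKM with USP22 shRNA and 27.0 FPKM with control shRNA. With the GC trend removed none of the 8 passed 2-fold, with CUL2 at 0.58 and UBE2D3 at -0.10.

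Among other factors of the bHLH-PAS family (the DNA-binding family of the HIFs) and HIF coactivators, 2 of 8 genes kept (25%, again near the 24.1% of all genes) were higher and none lower, with a median of 0.41. These were ARNTL2, at 6.18 FPKM in the USP22 shRNA library and 1.17 FPKM in the control library, and the clock factor CLOCK, at 2.67 FPKM with USP22 shRNA and 0.227 FPKM with control shRNA. The coactivator CREBBP was at 2.77 FPKM with USP22 shRNA and 3.35 FPKM with control shRNA and CITED4, a coactivator-binding protein, at 2.04 FPKM with USP22 shRNA and 4.47 FPKM with control shRNA. None of the 8 passed 2-fold with the GC trend removed.

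Other regulators of HIF1A protein had 5 of 18 genes higher (27.8%) and 2 lower (11.1%), both near the 24.1% and 12.2% of all genes. The median was 0.44, or -0.02 with the GC trend removed. HSP90AA1, the inducible HSP90 chaperone that stabilises HIF1A, was at 229 FPKM in the USP22 shRNA library and 46.4 FPKM in the control library, with log2 ratios of 2.28 as deposited and 1.71 without the GC trend. The deubiquitinase USP33, the SUMO protease SENP1, the kinase GSK3B and the ubiquitin ligase MDM2 were the other higher genes, with log2 ratios of 1.47, 1.36, 1.36 and 1.16. All 4 lay inside 2-fold with the trend removed. The lower genes were SAT2, at 4.39 FPKM with USP22 shRNA and 13.7 FPKM with control shRNA, and SIAH2, a ligase that targets prolyl hydroxylases, at 5.72 FPKM with USP22 shRNA and 13.8 FPKM with control shRNA. With the trend removed SAT2 was at -1.01 and SIAH2 inside 2-fold at -0.64.

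The HIF hydroxylases belong to the iron and 2-oxoglutarate oxygenases, of which 23 others passed the filter. Of these 7 were higher (30.4%) and 2 lower (8.70%), against 24.1% and 12.2% of all genes, with a median of 0.20. Without the GC trend 2 were higher and 2 lower, where 8.45% and 8.92% of all genes were, and the median was 0.19. PLOD2, a collagen lysyl hydroxylase and HIF target, was at 25.6 FPKM in the USP22 shRNA library and 3.95 FPKM in the control library, and the histone demethylase KDM3A, also a HIF target, at 6.71 FPKM with USP22 shRNA and 1.16 FPKM with control shRNA. The RNA demethylase ALKBH5 was at 12.0 FPKM with USP22 shRNA and 47.3 FPKM with control shRNA and the lysyl hydroxylase PLOD1 at 15.6 FPKM with USP22 shRNA and 45.8 FPKM with control shRNA. Without the GC trend PLOD2 was at 1.11, KDM3A at 1.21, ALKBH5 at -1.46 and PLOD1, inside 2-fold, at -0.93. The other oxygenase past 2-fold without the trend was the histone demethylase KDM5B, at -1.001 and at -0.30 as deposited, named after its values were seen.

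HIF targets were read as 2 lists, glycolytic and other. Of 21 glycolytic targets 3 were higher (14.3%) and 4 lower (19.0%), against 24.1% and 12.2% of all genes. Their median log2 ratio was -0.81, and -0.38 without the GC trend. The higher genes were the glucose transporter SLC2A3, at 4.25 FPKM in the USP22 shRNA library and 0.267 FPKM in the control library, ENO2, a neuronal enolase, at 10.1 FPKM with USP22 shRNA and 2.40 FPKM with control shRNA, and the phosphofructokinase PFKP, at 3.16 FPKM with USP22 shRNA and 0.342 FPKM with control shRNA. All 3 stayed past 2-fold with the trend removed, at 1.56, 2.14 and 2.17. SLC2A3 has a near-identical paralogue, so its value is uncertain. The lower genes were PFKFB4, at 1.45 FPKM with USP22 shRNA and 5.50 FPKM with control shRNA, ALDOC, PFKL and the lactate exporter SLC16A3, with log2 ratios from -1.41 to -1.09, and all 4 lay inside 2-fold once the trend was removed. Without the trend 2 other glycolytic genes passed the rule as lower, PGK1 at -1.56 and PGM1 at -1.08, named after their values were seen.

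Of 28 other HIF targets kept, 4 of them also counted among the oxygenases, 12 were higher (42.9%) and 1 lower, with a median of 0.81, against 24.1% and 12.2% of all genes. Without the GC trend 10 were higher and 2 lower, against 8.45% and 8.92% of all genes, with a median of 0.54. The highest were PLOD2 and the transferrin receptor TFRC, at 105 FPKM in the USP22 shRNA library and 23.1 FPKM in the control library, and TFRC had log2 ratios of 2.14 as deposited and 1.06 with the trend removed. The 1 lower gene was EPO, the erythropoietin gene, at 3.75 FPKM in the USP22 shRNA library and 17.4 FPKM in the control library, with a log2 ratio of -1.95 and -1.33 with the trend removed. FAM162A, named after its values were seen, was the other gene past 2-fold as lower without the trend, at -1.20, and was at -0.0076 as deposited. MIF, a secreted cytokine, had the next lowest ratio, at 154 FPKM with USP22 shRNA and 288 FPKM with control shRNA. The filter left out EGLN3, given above, and CA9, at 0.109 FPKM with USP22 shRNA and 0.731 FPKM with control shRNA. Both were lower with USP22 shRNA, and CA9 was named after its values were seen. With no filter on low values the median of these targets was 0.62, against 0.13 over all genes.

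Among partners of the mitophagy receptors, 5 of 15 were higher (33.3%, against 24.1% of all genes) and none lower, with a median of 0.58. Without the GC trend 4 were higher, against 8.45% of all genes, and the median was 0.10. These 4 were OPTN, RHEB, GABARAPL1 and the mitophagy kinase PINK1, which was at 0.67 as deposited and 1.23 without the trend and was named after its values were seen. The autophagy receptor OPTN was at 30.5 FPKM in the USP22 shRNA library and 5.83 FPKM in the control library, and RHEB, a GTPase that binds BNIP3L, at 59.7 FPKM with USP22 shRNA and 21.4 FPKM with control shRNA. FUNDC1, another hypoxia-linked mitophagy receptor, was at 31.5 FPKM with USP22 shRNA and 12.7 FPKM with control shRNA, GABARAPL1, an ATG8 protein that such receptors bind, at 39.2 FPKM with USP22 shRNA and 16.8 FPKM with control shRNA, and CALCOCO2 at 4.48 FPKM with USP22 shRNA and 1.70 FPKM with control shRNA. The lowest ratios belonged to the inner membrane prohibitin PHB2, at 62.0 FPKM with USP22 shRNA and 119 FPKM with control shRNA, and the phosphatase PGAM5, at 16.8 FPKM with USP22 shRNA and 32.4 FPKM with control shRNA. FUNDC1 (0.10) and CALCOCO2 (0.29) lay inside 2-fold with the trend removed.

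Of the other VEGF ligands and receptors 5 were kept, 2 of them past the rule as higher, against 24.1% of all genes, and none as lower. Their median log2 ratio was 0.52, and 0.93 without the GC trend. NRP2, a coreceptor, was at 29.1 FPKM in the USP22 shRNA library and 1.55 FPKM in the control library, a log2 ratio of 3.56, and the ligand VEGFD at 6.12 FPKM with USP22 shRNA and 0.328 FPKM with control shRNA, a log2 ratio of 2.42. Both stayed past 2-fold with the GC trend removed, at 3.62 and 1.57. The ligands VEGFB, at 23.3 FPKM with USP22 shRNA and 20.9 FPKM with control shRNA, and PGF, at 15.9 FPKM with USP22 shRNA and 17.8 FPKM with control shRNA, lay inside 2-fold. Of the 40 list genes that the naming rule picked, 20 overlap exons of another annotated gene, among them HSP90AA1, OPTN, ALKBH5 and NRP2 on the opposite strand and PFKFB4 and PFKP on the same strand, so their values are uncertain.

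**Figure D5:**
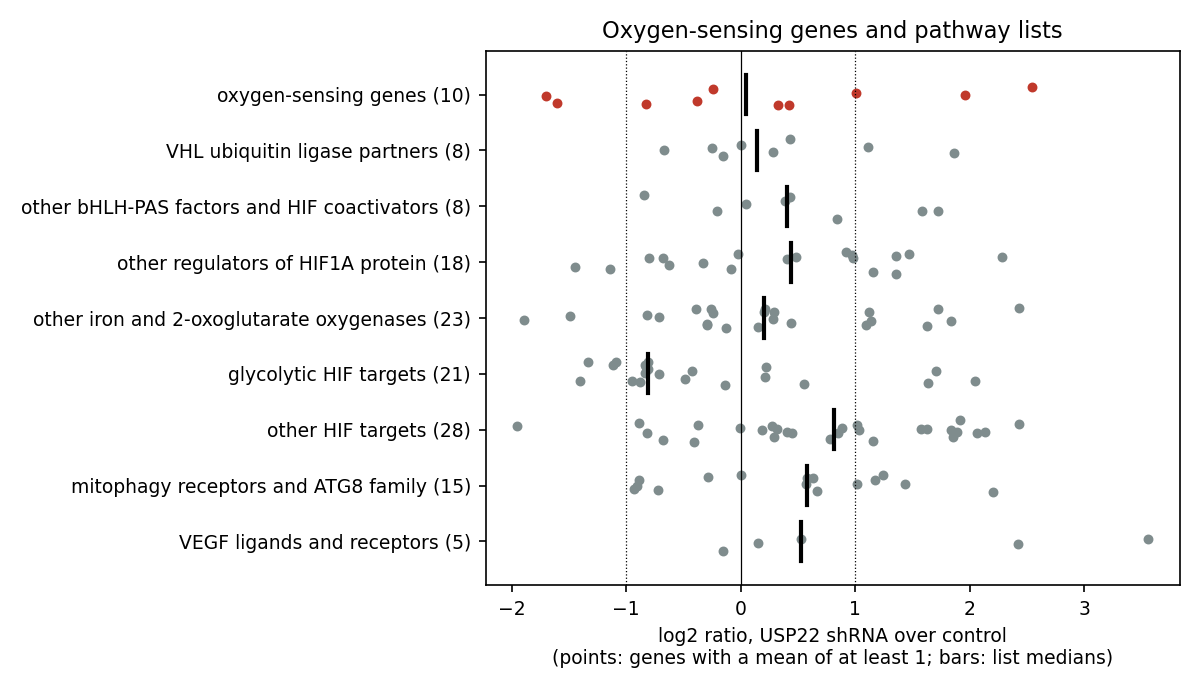
Log2 ratio of USP22 shRNA over control for each gene whose mean reached 1 FPKM in the oxygen-sensing set (red) and 8 pathway lists (grey), with list medians as black bars, the number of genes in parentheses and 2-fold as dotted lines; vertical scatter only separates points. The glycolytic targets have the lowest median, -0.81, and the other HIF targets the highest, 0.81, as deposited.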

How the data were processed

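The authors deposited a single-column table of gene values per library; no unit is named in it, and the deposited values were read as FPKM. HISAT2 2.0.4, StringTie 1.3.0 and GRCh37 are named, without their roles, per the submitters' processing notes. Low values times transcript length showed no clear step of 1 read (best strength 0.131 in the USP22 shRNA and 0.0847 in the control library, where 1 is a perfect step), so depth is unknown and no counting interval is given. The values sum to 218955 in the USP22 shRNA and 244301 in the control library.

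Ratios used a pseudocount of 1, which understates ratios of low genes, and genes were kept from a mean of 1 FPKM. GC content and length came from the longest protein-coding transcript in GENCODE 29 (GRCh38), matched by identifier; its coordinates served only to find overlapping exons within that annotation. The lowess span was 30% (statsmodels 0.14.6), and the steps were tested on simulated data. TMM scaling (trimmed mean of M-values) here used an unweighted mean of log2 ratios of the deposited values, not the weighted form for counts. It was taken after trimming 30% of genes at each end by ratio and 5% at each end by level. Symbols on 2 rows were read from the row of higher mean. The genes and lists were chosen with earlier results of these data known. Genes named were the 10, USP22, up to 2 at each end of a list, all past the 2-fold rule where 5 or fewer were, and the 3 nearest to HIF1A. A gene that this rule would name is not reported here.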

Additional observations from a re-analysis of the deposited data

How the results depend on the processing

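No paired analysis was possible because each group has 1 library, and for the same reason no replicate could be left out. The HIF1A log2 ratio of 1.96 ranged from 1.38 (pseudocount of 5) to 2.18 (pseudocount of 0.1) under other scalings and pseudocounts, and was inside 2-fold at 0.61 with the GC trend removed and 0.68 with GC and length trends removed together. The number of oxygen-sensing genes at least 2-fold lower was 2 as reported, 1 with a pseudocount of 5, where HIF1AN was at -0.98, and 3 with TMM scaling, where VHL was at -1.04. Over the 122 pathway genes kept, 35 were higher. The count was 18 with a pseudocount of 5, 20 with the GC trend removed and 18 with GC and length trends removed. Over all genes 24.1% were higher, and 8.71%, 8.45% and 8.18% under these settings in that order. A mean of at least 5 FPKM left fewer pathway genes, so the 21 higher there are not out of 122. Of all 5871 genes with that mean 20.2% were higher. Of the 122 pathway genes 9 were lower, against 4 with a pseudocount of 5, 22 with TMM scaling and 31 with a 1.5-fold rule. Over all genes 12.2% were lower as deposited, and 5.24%, 17.0% and 24.2% under these settings in that order. TMM scaling moved the median of all genes to -0.10, against 0.10 as deposited, and the share of all genes at least 2-fold higher and lower to 19.0% and 17.0%. No setting run reversed the sign of a ratio past 2-fold among the 10 genes, and ARNT, inside 2-fold, was at -0.04 with GC and length trends removed. The unknown depth limits every low value.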
